A study of Mus musculus with 4 samples.

Results

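The genes described here encode Wnt ligands, their Frizzled and Lrp receptors, and the secreted proteins that raise or lower Wnt signalling. They were chosen by name alone, as every gene row whose symbol begins with Wnt, Fzd, Rspo, Sfrp or Dkk followed by a digit, together with Frzb, Wif1, Lrp5 and Lrp6. This gave 45 of 23699 gene rows, made up of 19 Wnt ligands, 12 receptors, 4 R-spondins, 5 genes of the Sfrp group with Frzb, and 5 genes of the Dkk group with Wif1. RNA came from the 2 cm of colon that follow the caecum in mice aged 6 weeks and of mixed strain. The 2 control libraries had the genotype Nkx2.2flox/+, with 1 floxed allele and no Cre listed, and the 2 mutant libraries had the genotype Nkx2.2flox/flox; Villin-Cre/+. All 4 libraries therefore carried at least 1 floxed allele, and the groups differed both in the number of floxed alleles and in Cre. Villin-Cre is active in the gut epithelium and not in the underlying wall, while the RNA held epithelium and wall together. Whether each library is a different mouse is not stated in the labels, and the p-values reflect library-to-library spread only, which may be technical.

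Wnt proteins are lipid-modified ligands that act over short distances. They bind a Frizzled receptor and the co-receptor Lrp5 or Lrp6, which spares beta-catenin from degradation and lets it switch on genes with TCF and LEF factors. R-spondins strengthen the signal by keeping Frizzled at the cell surface, Sfrp proteins, Frzb and Wif1 bind Wnt proteins outside the cell, and Dkk1 blocks Lrp5 and Lrp6. In the gut, Wnt proteins and R-spondins made largely by stromal cells beneath the crypts sustain the epithelial stem cells.

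Values are FPKM, fragments scaled to transcript length and to the number of mapped fragments, and the width of the deposited 95% interval of an FPKM gives the number of fragments behind it. With the depth of control 1 set to 1, mutant 1 was the shallowest library at 0.464, while control 2 reached 1.13 and mutant 2 reached 1.03. Mutant 1 also stood apart at genes that are silent elsewhere: 496 of 1121 olfactory receptor genes were above 0 in it, against 29 to 36 in the other libraries. Nkx2-2, the targeted gene, stood at 0.724 and 0.609 FPKM in the controls and at 0.125 and 0.351 FPKM in the mutants. Its values rest on few fragments, 16.4 and 15.4 in the controls and 1 and 4.7 in the mutants. The 6 colonocyte genes were seen in every library, led by the carbonic anhydrase gene Car1 between 15112 and 22063 FPKM. Slc37a2 was at 21.5 and 50.2 FPKM in controls and at 6.29 and 15.4 FPKM in mutants (limma adjusted p = 0.825). It was the only 1 of the 6 without overlap between the groups. Of the small intestinal genes, the lactase gene Lct did not exceed 0.0720 FPKM, while Fabp6 lay at 42.0 to 63.0 FPKM and Alpi at 17.9 to 26.6 FPKM. Fabp1 lay at 0.471 to 3.76 FPKM. Apoa4 was at 5.33 FPKM in control 2 and at 0.0442 to 0.137 FPKM elsewhere. Across 13997 tested genes the median log2 change, mutant minus control, stood at −0.17 for the deposited values and at 0.0052 once they were rescaled by median ratios, a scaling that sets the median ratio between libraries to 1. All changes below are on the log2(FPKM + 0.5) scale.

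Wif1, which encodes a secreted inhibitor that binds Wnt proteins, was the member that stood furthest apart between the groups. It was at 1.18 FPKM in control 1 and 2.31 FPKM in control 2, and at 0 FPKM in mutant 1 and 0.222 FPKM in mutant 2. In most tested ligands, receptors and Sfrp genes the mutant and control values overlapped. Of the 45 members, 25 had a mean of at least 0.5 FPKM and were tested, and 20 lay below that level. None of the 25 passed at a limma adjusted p of 0.05, where 0.0643% of all tested genes passed. At an unadjusted p under 0.05, Wif1 alone of the 25 was called, and it was lower in the mutants, as were 4.12% of all tested genes. The changes were below 0 in 18 and above 0 in 7 of the 25, against 82.6% below 0 among all tested genes. After median ratio rescaling the split of the 25 was 10 below and 15 above 0, against 49.0% below 0 among all. The median change of the 25 was −0.07, beside −0.17 for all tested genes.

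**Figure D1:**
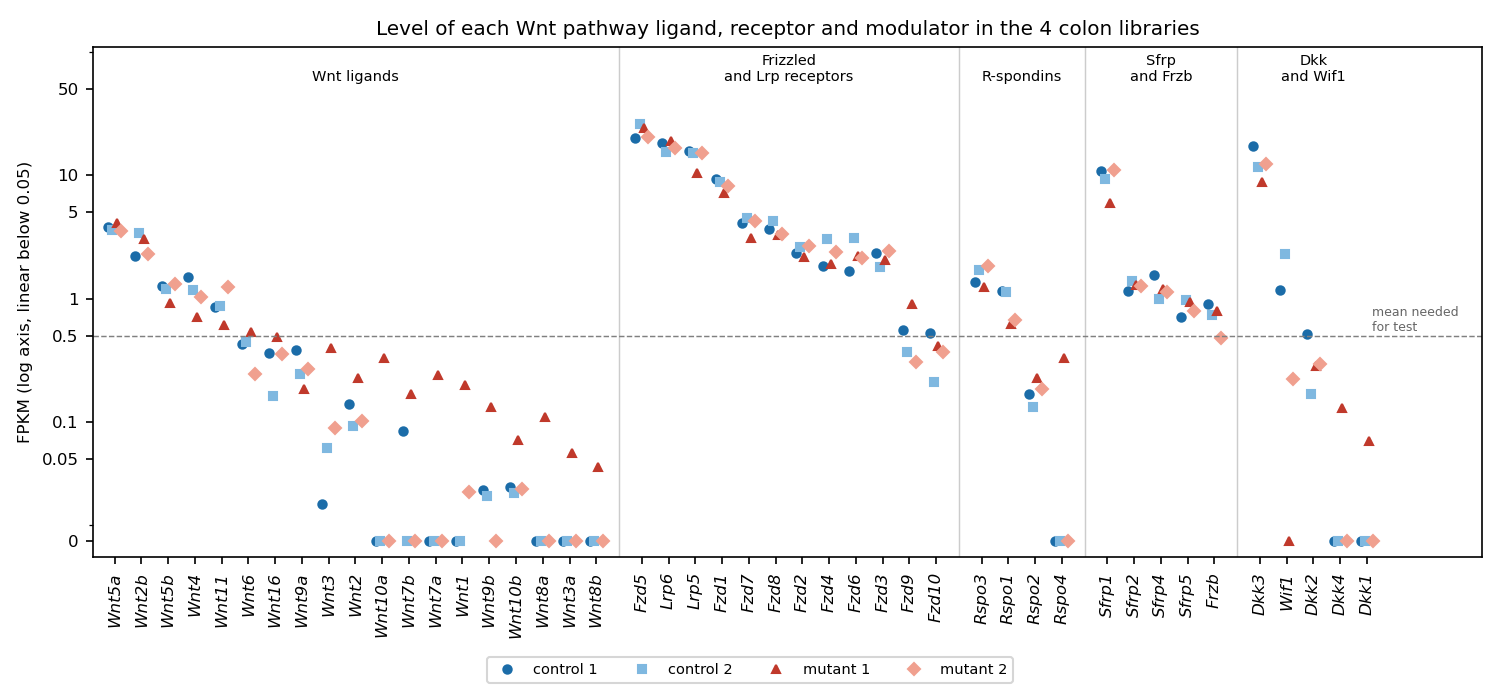
FPKM of all 45 members in control 1, control 2, mutant 1 and mutant 2, on a log axis that is linear below 0.05 FPKM, ordered by mean level within each class. Receptors reach the highest levels, Wif1 is separated between the groups, and mutant 1 alone is above 0 for 8 of the least abundant members.

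The Wnt ligand class was led by Wnt5a, a ligand best known for signalling that does not use beta-catenin. Wnt5a was at 3.82 and 3.62 FPKM in the controls and at 4.13 and 3.54 FPKM in the mutants. The groups overlapped, and the log2 change was 0.04 (95% interval −0.47 to 0.54). Wnt5a made up 31.9% to 34.3% of the summed FPKM of the 19 ligands in each library. Wnt2b, a ligand that signals through beta-catenin and is made in the gut wall, was at 2.21 and 3.41 FPKM in the controls and 3.02 and 2.30 FPKM in the mutants. Its interval ran from −0.68 to 0.57, and the spread within each group was larger than the difference between them. Wnt5b, the close relative of Wnt5a, was at 1.26 and 1.20 FPKM in the controls and 0.926 and 1.31 FPKM in the mutants. The groups overlapped for Wnt5b too, and its locus encloses that of the F-box gene Fbxl14 (11.9 to 16.6 FPKM), and whether the counting kept their reads apart is not given in the sources used here.

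The other tested ligands were Wnt4 and Wnt11. Wnt4, known for roles in kidney and reproductive tract development, was at 1.51 and 1.18 FPKM in the controls and at 0.712 and 1.03 FPKM in the mutants. The mutants were lower than the controls without overlap, with a log2 change of −0.43 (SE 0.28, limma adjusted p = 0.825, unadjusted 0.161). Wnt11 was at 0.849 and 0.867 FPKM in the controls and at 0.610 and 1.25 FPKM in the mutants, so the mutants lay on either side of the controls.

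The remaining 14 ligands were below the level for a test, at no more than 0.538 FPKM in any library. Wnt6, Wnt16 and Wnt9a had means of 0.413, 0.343 and 0.271 FPKM, and Wnt3, the ligand of Paneth cells in the small intestine, stood at 0.0228 and 0.0607 FPKM in the controls, 0.393 FPKM in mutant 1 and 0.0886 FPKM in mutant 2. These Wnt3 values rest on 1, 3, 8 and 4 fragments. Wnt2, Wnt7b, Wnt9b and Wnt10b were seen at 0 to 4 fragments in each library. Wnt1, Wnt3a, Wnt7a, Wnt8a, Wnt8b and Wnt10a were at 0 in both controls. Of the 20 untested members of all classes, 17 had their highest value in mutant 1, and 8 (Wnt3a, Wnt7a, Wnt8a, Wnt8b, Wnt10a, Rspo4, Dkk1 and Dkk4) were above 0 in that library alone, at 0.0451 to 0.331 FPKM from 1 to 5 fragments. A count of 0 in the controls allows up to 3 fragments, which for these 8 genes is 0.0557 to 0.180 FPKM. The part that the signal of mutant 1 at silent genes has in these values was not tested.

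Several of the low ligands lie next to each other. On mm9, 4 pairs of members are less than 100000 bases apart, and all are pairs of Wnt genes: Wnt6 and Wnt10a on chromosome 1, Wnt3a and Wnt9a as well as Wnt9b and Wnt3 on chromosome 11, and Wnt10b and Wnt1 on chromosome 15. In the last 3 pairs the genes are transcribed away from each other. The gaps run from 6699 to 24353 bases. All 8 genes of these pairs were below the level for a test, with mean FPKM of 0.413 and 0.0816 for Wnt6 and Wnt10a and of 0.0141 and 0.271 for Wnt3a and Wnt9a.

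The receptors were the most abundant class, and none was called. Fzd5, a Frizzled receptor of the intestinal epithelium, was at 20.3 and 25.9 FPKM in the controls and at 24.2 and 20.5 FPKM in the mutants. The groups overlapped, and the log2 change was −0.04 (95% interval −0.51 to 0.43). The co-receptor gene Lrp6 was at 18.5 and 15.4 FPKM in the controls and at 18.8 and 16.8 FPKM in the mutants, again overlapping, with an interval of −0.38 to 0.52. Lrp5, the related co-receptor, was at 15.8 and 15.2 FPKM in the controls and at 10.4 and 15.1 FPKM in the mutants. The Lrp5 mutants lay below the controls, mutant 2 by less than 0.1 FPKM, and the log2 change was −0.29 (SE 0.22, limma adjusted p = 0.825).

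Of the other Frizzled genes, Fzd1 averaged 9.08 ± 0.257 FPKM in controls against 7.65 ± 0.730 FPKM in mutants (SD, n = 2 each), and Fzd8 had 3.97 ± 0.406 and 3.31 ± 0.0443 FPKM. In both genes the mutants lay below the controls, with log2 changes of −0.24 and −0.23. Fzd7, a receptor of crypt stem cells, averaged 4.31 ± 0.303 FPKM in controls against 3.68 ± 0.851 FPKM in mutants, with overlapping groups. Fzd2, Fzd3, Fzd4 and Fzd6 lay between 1.66 and 3.08 FPKM in every library, and Fzd9 between 0.305 and 0.902 FPKM. Fzd10 was below the level for a test, at 0.212 to 0.525 FPKM. The summed FPKM of the 12 receptors was 80.9 and 85.3 in the controls and 76.6 and 78.6 in the mutants, and Fzd5 alone made up 25.1% to 31.6% of it.

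Counted over all classes, the mutants lay below the controls without overlap in 6 of the 25 tested members (Wif1, Rspo1, Wnt4, Lrp5, Fzd1 and Fzd8), beside 35.1% of all tested genes. The mutants lay above the controls in 0 of the 25, beside 3.39% of all tested genes. After median ratio rescaling 4 were below (Wif1, Rspo1, Wnt4 and Fzd1) and 2 above (Fzd2 and Fzd3), beside 15.3% of all tested genes in each direction. Lrp5 and Fzd8 overlapped after rescaling.

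Both R-spondin genes above the level for a test act through Lgr receptors, and they differed in pattern. Rspo3, the R-spondin with a known role in the crypt niche, was at 1.37 and 1.69 FPKM in the controls and at 1.24 and 1.82 FPKM in the mutants. The controls lay within the range of the mutants, and the interval of the log2 change was −0.63 to 0.62. Rspo1 was at 1.14 and 1.12 FPKM in the controls and at 0.616 and 0.673 FPKM in the mutants. Rspo1 had close values within each group and no overlap between them, from 28, 31, 7 and 17 fragments. Its log2 change was −0.51 (SE 0.27, limma adjusted p = 0.825, unadjusted 0.0918). Rspo2 lay between 0.131 and 0.228 FPKM, and Rspo4 was at 0 in every library but mutant 1.

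The Sfrp group, whose proteins bind Wnt through a domain related to that of Frizzled, was led by Sfrp1 at 10.8 and 9.32 FPKM in the controls and 5.94 and 11.1 FPKM in the mutants. Mutant 1 was the lowest and mutant 2 the highest of the 4, and the interval of the log2 change was −0.95 to 0.37. Sfrp2 was at 1.15 and 1.38 FPKM in the controls and at 1.28 and 1.26 FPKM in the mutants, which lay between the controls. Sfrp4 was at 1.54 and 0.988 FPKM in the controls and at 1.20 and 1.12 FPKM in the mutants, again between the controls. Sfrp5 and Frzb had mean levels of 0.853 and 0.727 FPKM and overlapped between the groups.

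In the Dkk group, Dkk3, a divergent member of the family, was at 17.4 and 11.6 FPKM in the controls and at 8.76 and 12.5 FPKM in the mutants. The groups overlapped, and the log2 change was −0.43 (SE 0.26, limma adjusted p = 0.825). Dkk2 was below the level for a test at 0.168 to 0.513 FPKM, and Dkk1 and Dkk4 were each seen as 1 fragment in mutant 1 and at 0 elsewhere.

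**Figure D2:**
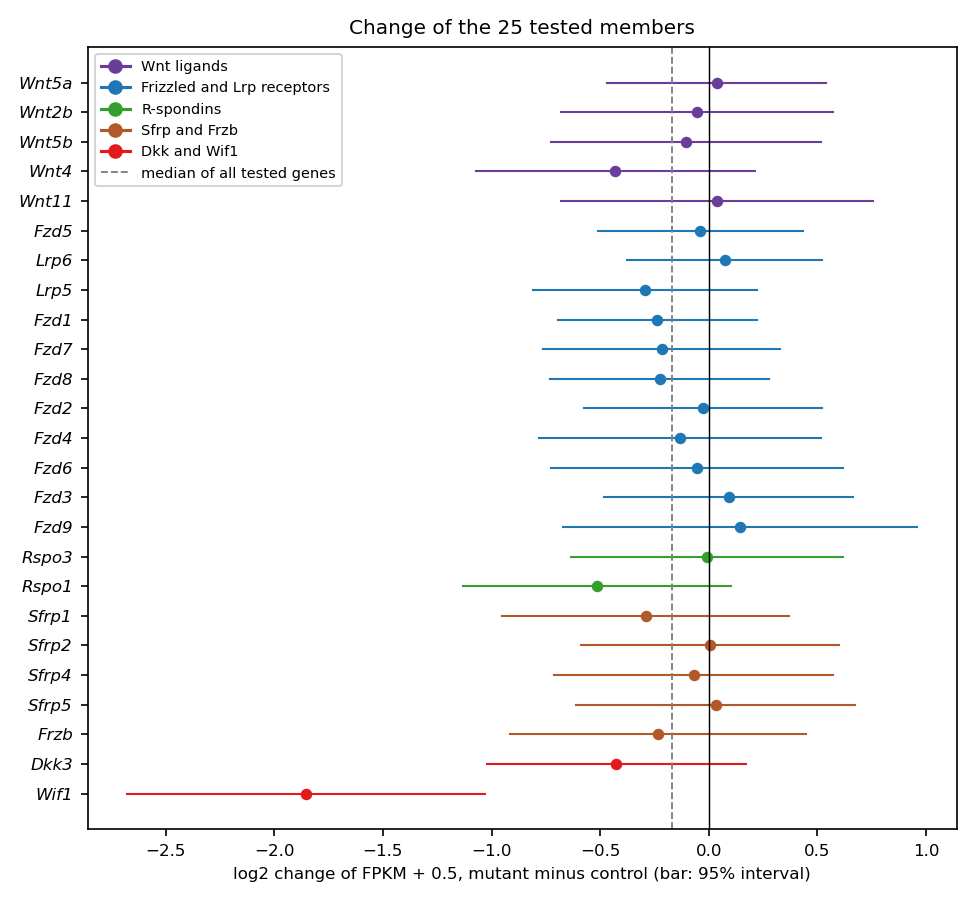
Log2 change of FPKM + 0.5, mutant minus control, for the 25 tested members, with 95% intervals from limma and n = 2 libraries a group. The dashed line is the median of all tested genes at −0.17, and the interval of Wif1, −2.68 to −1.03, is the one that does not include 0.

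The difference in Wif1 had a log2 change of −1.85 (SE 0.36, unadjusted p = 0.000777) and an adjusted p of 0.375 by limma. Relative to the median gene the change was −1.69. Among the 13997 tested genes it ranked 16th from the most negative change and 29th by p. Wif1 reached the level for a test through the controls, since both mutants were below 0.5 FPKM. Its rank and p are therefore given as description only. With no filter on low values the unadjusted limma p of Wif1 was 0.0237 and the adjusted p was 0.758. The values rest on 36 and 80 fragments in the controls and on 0 and 7 fragments in the mutants. In mutant 1 a count of 0 allows up to 0.211 FPKM. Wif1 was the only one of the 45 members at 0 in mutant 1, while 9 or 10 members were at 0 in each other library. Scaled for depth, the mutants together held 8.59% of the fragments per depth of the controls, with an exact 95% interval of 3.38% to 18.3% that covers counting error only. In the authors' deposited table the mean normalized count of Wif1 was 44.0 in controls and 3.95 in mutants, a log2 fold change of −3.48 with a p of 0.00974 and an adjusted p of 1. It was the only member of the 45 with a p under 0.05 in the authors' deposited table.

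The call of Wif1 turned on the libraries in the fit. It passed in limma without control 1 (log2 change −2.23, adjusted p = 1.44e-05) and without control 2 (−1.48, adjusted p = 0.0366). It did not pass without mutant 1 (−1.59, adjusted p = 1) or without mutant 2 (−2.12, adjusted p = 0.311). In the limma alternatives that tested Wif1, the change was below 0, from −3.29 to −1.28, and the adjusted p ran from 1.14e-05 to 1. With a mean of at least 1 FPKM required, Wif1 was not tested. The counts of all genes past the threshold in these 4 fits were 124, 362, 8 and 12, against 9 with all libraries.

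Markers of other cell types were set beside Wif1 and Rspo1, and the lists given first were chosen after their values were seen. In bulk RNA, fewer cells of a type and less RNA per cell cannot be told apart. Of the 5 mesothelial markers, 3 were tested and 0 passed, and both mutants lay below the controls for Msln at 1.71 and 2.10 FPKM in controls against 0.525 and 0.642 FPKM in mutants, and for Upk3b at 1.96 and 2.83 against 1.41 and 0.493 FPKM. The third, Upk1b, was the most abundant and overlapped, at 3.11 and 4.34 FPKM in controls and at 3.39 and 3.14 FPKM in mutants. The summed level of the 5 was 7.94 to 10.2 FPKM in controls and 4.58 to 5.75 FPKM in mutants, and none was at 0. No enteric glia or neuron marker passed either. The summed level of the 5 enteric glia markers was 9.32 to 11.5 FPKM in controls and 5.61 to 6.43 FPKM in mutants, and that of the 8 enteric neuron markers 35.5 to 35.6 and 18.3 to 27.7 FPKM. The mutants lay below the controls without overlap in 2 of the 3 tested mesothelial, 4 of the 5 glia and 4 of the 7 tested neuron markers. The share of all tested genes was 35.1%. After median ratio rescaling these counts were again 2, 4 and 4, beside 15.3% of all tested genes. The pattern was not confined to these lists. It held for 5 of the 7 endothelial markers and 6 of the 9 markers of the mesenchyme beneath the crypts. It also held for 3 of the 9 fibroblast and 3 of the 8 smooth muscle markers. After rescaling these were 3, 4, 3 and 3. The mutants lay above the controls in 0, 0, 1 and 0 as deposited, and in 0, 0, 2 and 2 after rescaling. Among the 7 enteroendocrine markers 3 passed, all lower (Tph1, Chga and Chgb). Tph1 was at 15.4 and 18.8 FPKM in controls and at 0.354 and 1.40 FPKM in mutants, and Chga was at 43.4 and 69.8 against 4.87 and 8.69 FPKM. Pyy went the other way without passing, at 57.2 and 96.7 FPKM in controls and at 197.7 and 165.7 FPKM in mutants (log2 change 1.28, limma adjusted p = 0.404). Neurod1 and Gcg overlapped, and Sst was lower in both mutants without passing. The summed level of those 7 overlapped, at 323.9 to 469.7 FPKM in controls and 343.9 to 380.0 FPKM in mutants. The part of these cell types in the values of Wif1 and Rspo1 was not tested.

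Markers of the wall and the epithelium were also summed. The summed level of 9 fibroblast markers was 455.4 to 529.4 FPKM in controls and 394.0 to 427.7 FPKM in mutants, that of 9 markers of the mesenchyme beneath the crypts 79.9 to 82.7 and 60.9 to 71.7 FPKM, and that of 8 smooth muscle markers 1756 to 1961 and 1442 to 1829 FPKM. The 8 general epithelial markers summed to 6083 to 7691 FPKM in controls and to 6421 to 7248 FPKM in mutants. As deposited, changes were below 0 in 7 of the 9 fibroblast, 8 of the 9 mesenchyme, 6 of the 8 smooth muscle and 5 of the 8 epithelial markers. Among all tested genes 82.6% were below 0. After median ratio rescaling these counts were 4, 6, 5 and 1, beside 49.0% of all tested genes. The 9 immune markers summed to 192.1 FPKM in control 1 and to 42.5 to 54.5 FPKM in the other libraries, and no marker of these lists was at 0 throughout. Their part in the levels of the ligands was not tested.

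**Figure D3:**
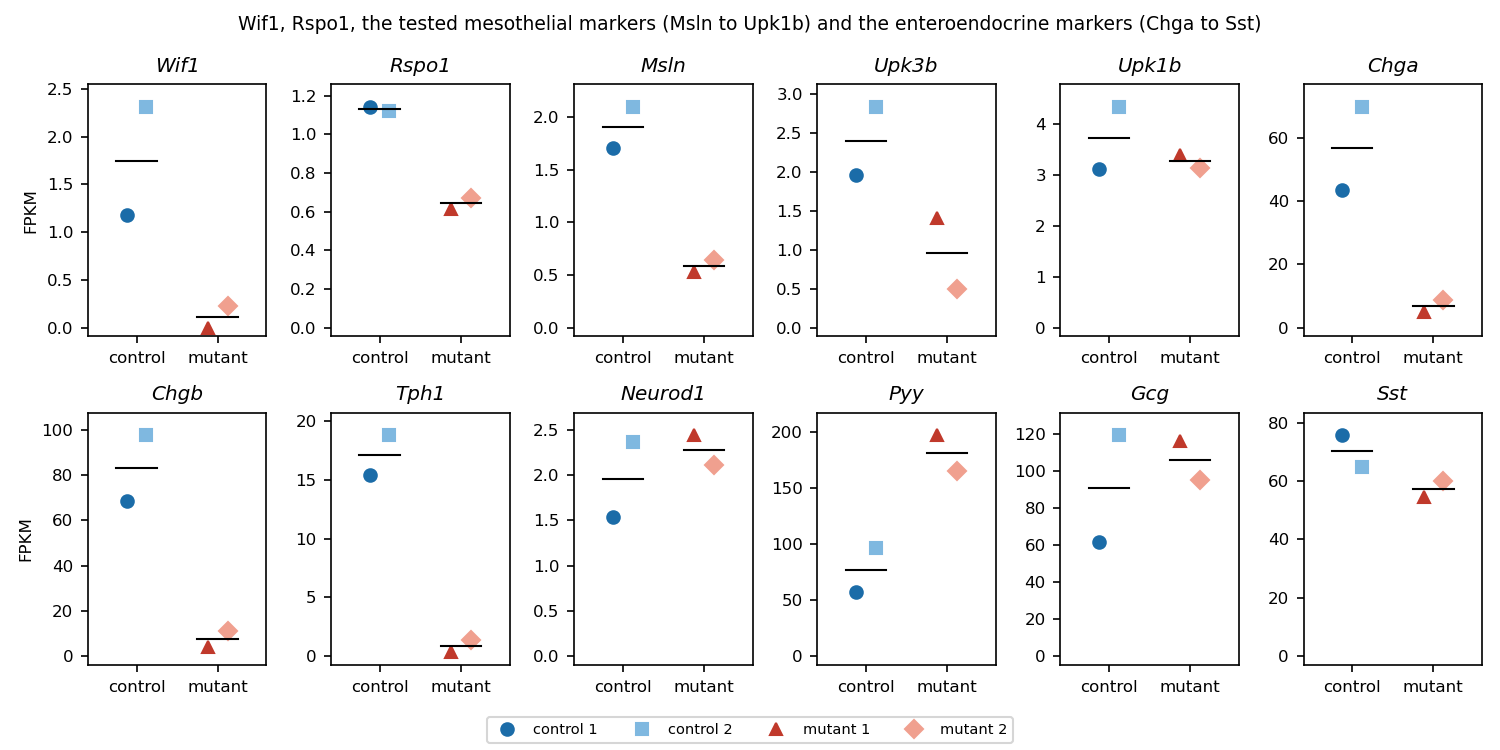
FPKM of Wif1, Rspo1, the 3 tested mesothelial markers and the 7 enteroendocrine markers in each library, each panel with its own linear axis and a bar at the group mean (n = 2). Both mutants lie below both controls for Wif1, Rspo1, Msln, Upk3b, Chga, Chgb, Tph1 and Sst and above them for Pyy, and the groups overlap for Upk1b, Neurod1 and Gcg.

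The mm9 position of Wif1 is chromosome 10, 120471060 to 120537698, plus strand, with 10 exons in GENCODE. The coding sequence starts in exon 1, after a 5′ UTR that GENCODE places at 120471016 to 120471398, and the 3′ UTR is in the last exon, from 120536933 to 120537706. Rspo1 lies on chromosome 4 from 124663674 to 124686343. The 250 bases before each start site are shown for Wif1 and Rspo1, the members with the lowest mutant values relative to control, for Wnt2b, an abundant ligand, and for Wnt8b, which was not seen outside mutant 1. Sequences are from the RefSeq promoter table (GRCm38.p6), read 5′ to 3′ on the strand of the gene. Each matched mm9 at 1 place that ends at the base before the gene's start in the files: chr10:120470810-120471059 (plus) for Wif1, chr4:124663424-124663673 (plus) for Rspo1, chr3:104764628-104764877 (minus) for Wnt2b and chr19:44567712-44567961 (plus) for Wnt8b. GENCODE starts Wif1 at 120471016, inside its window, so by GENCODE the last bases shown for Wif1 are 5′ UTR. Capitals mark CpG dinucleotides, the sites of DNA methylation.
Wif1: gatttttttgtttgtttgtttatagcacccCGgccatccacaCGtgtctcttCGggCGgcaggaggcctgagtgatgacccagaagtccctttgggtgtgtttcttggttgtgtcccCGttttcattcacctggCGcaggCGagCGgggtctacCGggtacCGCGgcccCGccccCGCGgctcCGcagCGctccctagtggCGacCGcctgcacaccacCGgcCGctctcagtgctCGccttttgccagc
Rspo1: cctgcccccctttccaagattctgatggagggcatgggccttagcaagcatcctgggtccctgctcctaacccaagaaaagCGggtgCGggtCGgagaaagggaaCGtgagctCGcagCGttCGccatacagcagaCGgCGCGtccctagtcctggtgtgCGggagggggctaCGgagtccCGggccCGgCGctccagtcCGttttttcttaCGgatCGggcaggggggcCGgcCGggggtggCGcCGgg
Wnt2b: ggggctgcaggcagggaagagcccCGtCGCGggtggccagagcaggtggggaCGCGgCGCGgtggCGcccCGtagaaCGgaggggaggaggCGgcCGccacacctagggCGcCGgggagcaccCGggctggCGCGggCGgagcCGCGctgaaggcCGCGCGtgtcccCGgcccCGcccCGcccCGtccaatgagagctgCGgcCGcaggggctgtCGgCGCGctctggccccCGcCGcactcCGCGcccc
Wnt8b: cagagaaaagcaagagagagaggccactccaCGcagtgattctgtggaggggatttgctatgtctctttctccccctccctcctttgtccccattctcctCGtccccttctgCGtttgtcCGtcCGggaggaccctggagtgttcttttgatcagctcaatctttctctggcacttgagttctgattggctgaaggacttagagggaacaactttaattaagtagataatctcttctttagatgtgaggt

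Wif1 has 21 CpG dinucleotides in this window, Rspo1 has 22, Wnt2b has 36 and Wnt8b has 5. RefSeq windows were matched for 29 of the 45 members, 32 windows in all because Wnt5b and Wnt11 have several start sites. The median was 22 CpG in the members' windows and 6 in all 32851 windows of the table, and 29 of the 32 were above the median of all. The median was 21 in the 17 windows of tested members and 22 in the 15 windows of members below the level for a test, a difference that was not tested. The core motif of NK2 homeodomain factors, the family of Nkx2-2, was searched as AAGTG on both strands. It was found in 4 of the 32 windows (Wnt8b, Wnt10b, Wnt11 and Sfrp5) and in 40.7% of all windows, and not in those of Wif1 or Rspo1. The TCF and LEF core, searched as CTTTGA on both strands, was found in 5 of the 32 windows and in 13.8% of all windows. The motifs can overlap, since the reverse complement of CTTTGA ends in the letters with which AAGTG begins. The median GC content was 67.4% in the members' windows and 52.4% in all windows. The part of base composition in the motif counts was not tested. A match or its absence concerns these letters in these windows only.

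**Figure D4:**
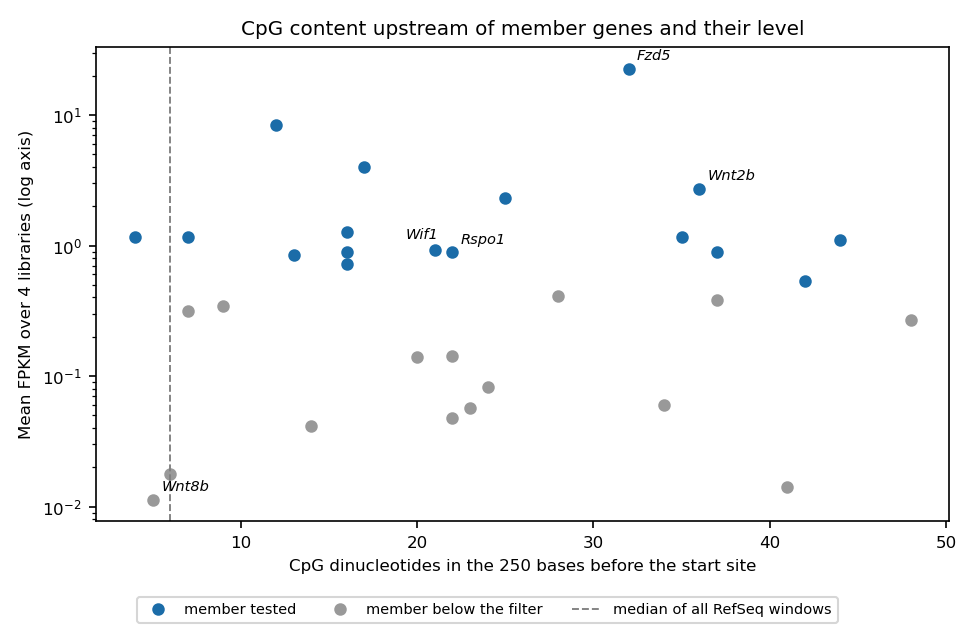
Number of CpG dinucleotides in the 250 bases before the start site (x axis) against mean FPKM over the 4 libraries on a log axis, for 32 windows of 29 members. Tested members (blue) and members below the level for a test (grey) overlap widely in CpG count, and the dashed line is the median of 6 over all RefSeq windows.

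Of the 45 members, 4 had several RefSeq transcripts in the files (Fzd5, Fzd6, Wnt5a and Wnt7b). Wnt5a has 2 start sites on chromosome 14. The transcript from the downstream site (NM_001256224, from 29324591, 3731 bases) was at 2.96 and 2.25 FPKM in the controls and at 3.39 and 2.40 FPKM in the mutants. The transcript from the upstream site (NM_009524, from 29318659, 4354 bases) was at 0.863 and 1.36 FPKM in the controls and 0.740 and 1.15 FPKM in the mutants. The downstream start thus held 62.3% to 82.1% of the Wnt5a estimate in each library, with overlapping groups. For Fzd5, the split between 2 transcripts of nearly equal length from 1 start site was uneven between the controls: NM_022721 held 76.4% in control 1 and 44.4% in control 2, and 49.8% and 54.1% in the mutants. In Fzd6, NM_001162494 held at least 98.4% of the estimate. Of 50 member transcripts 27 were tested and 0 passed in limma over all transcripts, where 0.00592% passed, and 1, that of Wif1, had an unadjusted p under 0.05.

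The rest of the pathway was followed through 86 further genes in 6 lists by role, of which 77 were tested. None passed over all genes in limma. At an unadjusted p under 0.05 there were 3, all lower in the mutants, beside 4.12% of all tested genes. The changes were below 0 in 67 and above 0 in 10 of the 77, beside 82.6% below 0 among all tested genes, and after median ratio rescaling they were below 0 in 45 and above 0 in 32, beside 49.0% below 0. The median change of the 77 was −0.21, beside −0.17 for all tested genes. Those 3 genes were in the list of proteins that release, carry or inactivate Wnt (7 tested, median −0.30, 7 below 0 as deposited and 4 after rescaling). Porcn, the enzyme that attaches the lipid to Wnt proteins, was at 2.01 and 2.38 FPKM in the controls and at 0.961 and 1.52 FPKM in the mutants (log2 change −0.65, SE 0.27, limma adjusted p = 0.825). Gpc3, a cell-surface glypican, was at 7.06 and 7.34 FPKM in the controls and at 2.92 and 5.53 FPKM in the mutants (log2 change −0.76, SE 0.29, limma adjusted p = 0.825). Sulf1, an enzyme that trims heparan sulphate and was named after its values were seen, was at 3.51 and 2.81 FPKM in the controls and 1.46 and 2.32 FPKM in the mutants. In these 3 genes mutant 1, the library of lowest depth, had the lowest value, and the part of depth in this was not tested. Wls, the carrier that takes Wnt proteins to the surface, averaged 51.4 ± 1.57 FPKM in controls against 46.3 ± 3.01 FPKM in mutants (SD, n = 2 each), and Sulf2, related to Sulf1, overlapped at 14.3 to 23.2 FPKM.

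Among other receptors and regulators of receptor turnover, 6 of 11 tested genes were below 0 and 5 above, with a median of −0.10 and 0 passing, and after rescaling 3 were below 0 and 8 above. Lgr4, a receptor for R-spondins, averaged 37.5 ± 0.157 FPKM in controls against 37.7 ± 1.89 FPKM in mutants, Ryk, an alternative Wnt receptor, 29.3 ± 0.433 and 24.1 ± 4.83 FPKM, and Rnf43, which removes Frizzled from the surface, 8.66 ± 0.282 and 7.07 ± 0.0472 FPKM. The list of other secreted or tethered modulators had 4 tested genes, all below 0 as deposited and after rescaling (median −0.27 as deposited), and 0 passed. Igfbp4 averaged 58.2 ± 11.2 FPKM in controls against 43.4 ± 11.7 FPKM in mutants, and Tpbg 2.09 ± 0.0944 and 1.51 ± 0.119 FPKM, with limma adjusted p = 0.825 for both.

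Inside the cell, 24 of 26 tested genes of beta-catenin and its cytosolic regulators were below 0 (median −0.21), and 15 of 16 nuclear factors (median −0.24), with 0 passing in either list. Beside these counts, 82.6% of all tested genes were below 0, and after rescaling 15 of the 26 and 12 of the 16 were, beside 49.0% of all. Ctnnb1, which encodes beta-catenin, averaged 394.0 ± 21.2 FPKM in controls against 341.0 ± 49.2 FPKM in mutants, the casein kinase gene Csnk1a1 159.2 ± 0.654 and 146.9 ± 11.1 FPKM, and Dvl1, which relays the signal from Frizzled, 19.8 ± 2.90 and 15.4 ± 2.82 FPKM. The co-repressor gene Aes averaged 512.0 ± 30.7 FPKM in controls against 446.0 ± 36.2 FPKM in mutants, and Ctbp1 112.5 ± 3.62 and 98.2 ± 15.2 FPKM. The factors Tcf7 and Lef1, both also used by T cells, had 6.18 ± 2.63 and 3.56 ± 0.520 FPKM and 0.755 ± 0.143 and 0.383 ± 0.178 FPKM, and Tcf7 was highest in control 1, where the immune markers were also highest.

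Genes used as targets of the pathway in gut epithelium gave 17 changes below 0 and 4 above among 21 tested, beside 82.6% below 0 among all tested genes, with a median of −0.22 and 0 passing. After rescaling 13 of the 21 were below 0 and 8 above, beside 49.0% below 0 among all. Axin2, a feedback target, was at 11.6 and 9.18 FPKM in the controls and at 7.17 and 7.91 FPKM in the mutants (log2 change −0.43, SE 0.21, limma adjusted p = 0.825). Myc, a growth regulator, averaged 18.1 ± 3.88 FPKM in controls against 12.4 ± 2.91 FPKM in mutants (SD, n = 2 each). In both genes the mutants lay below the controls without overlap, as in 9 of the 21 as deposited, beside 35.1% of all tested genes, and in 5 of the 21 after rescaling, beside 15.3%. Lgr5, the marker of crypt stem cells, was at 0.752 and 0.927 FPKM in the controls and at 1.14 and 1.00 FPKM in the mutants, which is above the controls, with a log2 change of 0.23 (95% interval −0.39 to 0.85). Ets2 and Slc12a2, the most abundant of the list, had 74.7 ± 7.12 and 62.0 ± 9.63 FPKM and 69.9 ± 5.35 and 62.9 ± 8.03 FPKM in controls and mutants.

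**Figure D5:**
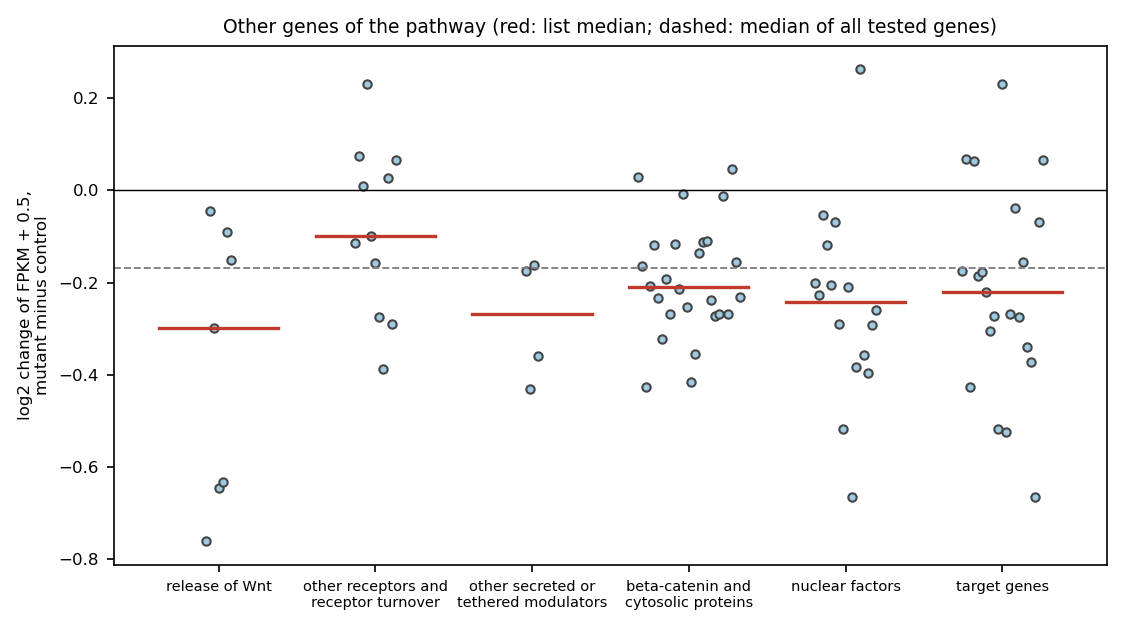
Log2 change of FPKM + 0.5, mutant minus control, of each tested gene in the 6 lists of other pathway genes (a gene can be in several lists), with the list median in red and the median of all tested genes, −0.17, dashed. The list medians lie between −0.30 and −0.10.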

How the data were processed

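RNA from 4 colon libraries was compared, 2 controls and 2 mutants. Reads were made with bcl2fastq 1.8.4 and processed with TopHat and Cufflinks on mm9, per the submitters' processing notes, and other versions, the annotation release and strandedness are not given in the sources used here. The deposited gene and isoform files give FPKM with a 95% interval and a status, and a coverage signal per transcript is in the isoform files, per the file headers. The authors' deposited DESeq table holds mean normalized counts (a signal), the fold change as a ratio and as log2, and the p-value before and after adjustment.

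Rows not marked OK in all 4 libraries were dropped (306 of 23699, no member among them), and rows sharing a symbol were summed. The 13997 genes averaging 0.5 FPKM or more were fitted as log2(FPKM + 0.5) with limma 3.58.1 in R 4.3.3, with a variance trend and Benjamini-Hochberg adjustment at 0.05 over all genes. Transcripts were fitted in the same way. Because FPKM is not a count, count models were not applied, and this scale understates the change of low genes. An exact permutation test of 2 against 2 libraries cannot go below 0.333. The fit was also run on simulated data with known changes in both directions. The simulation had neither the general shift below 0 nor the signal of mutant 1 at silent genes, and cannot speak to these.

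Depth was taken from the ratio of coverage to FPKM, and fragments from the interval width: 86.9% to 87.8% of implied numbers under 50 in genes with 1 transcript were within 0.05 of a whole number. Intervals and floors (3 fragments) cover counting error only. Coordinates are mm9, counted from 1, with exons from GENCODE vM1, which overlapped all 45 members. Draxin and Amer1 were read under older symbols through RefSeq synonyms, and the marker genes Muc2 and Si were not analysed here.

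Values in every library are given for members with an unadjusted p under 0.05, the 3 most abundant tested members of each class, and members whose groups did not overlap with a change of at least 1.5-fold. Of each pathway list, the 2 genes with the smallest p and the 2 most abundant are named. Lgr5, Sulf1, Lct, Fabp1, Apoa4, Slc37a2 and the mesothelial and enteroendocrine markers described singly were added after their values were seen. The members, lists and rules were chosen with earlier results of these data known. Alternatives covered the pseudocount, the filter, scaling, the variance trend, row status, a replicate block, leaving out single libraries, and the authors' deposited table.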

Additional observations from a re-analysis of the deposited data

How the results depend on the processing

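No member, pathway gene or member transcript passed in limma under another pseudocount, filter, scaling, variance model or row status, and no member in the authors' deposited table; Wif1 was not tested at a minimum of 1 FPKM. With each library left out in turn, 0 to 1 members passed, and the 1 was Wif1, without either control. In those 4 fits 15 to 16 members did not overlap, since 1 library then stands for a group. That group is assumed to vary like the other. Without control 1, control 2, mutant 1 and mutant 2 in turn, the mutants were lower in 13, 9, 9 and 13 of these members. They were higher in 3, 6, 6 and 3. The share of all tested genes without overlap in these fits is not given here. Beside all-gene medians of −0.14, −0.20, −0.066 and −0.28 in the same order, the members' median log2 change was −0.15, −0.065, −0.062 and −0.22. The median was 0.031 with no filter on low values, 0.064 after median ratio rescaling, 0.086 after quantile normalization and 0.085 in the authors' deposited table, where the medians of all genes were −0.055, 0.0052, 0.0013 and −0.011. The libraries share replicate numbers but nothing says that a number pairs them, and the deviations of same-numbered libraries had a correlation of −0.00217 across genes. With the replicate block 1 member passed, again Wif1 (adjusted p = 1.14e-05), among 195 genes in all against 9 without the block. The 45 genes followed singly were not the 45 members, but the 25 tested members and the pathway genes named by smallest p or abundance. Of these, 12 changed sign after rescaling, 12 after quantile normalization and 3 to 12 with a library left out. None of those that changed sign passed in any setting. The depth of mutant 1 limits members under 0.5 FPKM, where values rest on few fragments.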
